A study of Homo sapiens with 42 samples.

Results

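The loci of 4 transcription factors of the melanocyte lineage, SOX10, MITF, TFAP2A and PAX3, were followed in ATAC-seq peak lists of 42 samples, among 19974 protein-coding loci in all. A locus was the gene with 100 kb on each side in RefSeq GRCh38, and a peak belonged to it when its summit lay inside. Over the 42 samples 5195 summits lay in the 4 loci, with 1346 at MITF, 1430 at SOX10, 1091 at TFAP2A and 1328 at PAX3. ATAC-seq marks open chromatin by the insertion of adapters with a transposase. The samples were of 7 established human lines, all wild type by their labels: the uveal melanoma line 92-1, the melanoma line A375, the prostate line 22RV1, the rhabdomyosarcoma line RD, the breast line DU4475, the colorectal line HCT116 and the myeloid leukemia line MV411. Each was exposed for 4 h to DMSO, the negative control, or to FHT-1015, which blocks both SMARCA4 and SMARCA2, and each of the 14 groups had 3 biological replicates. No source used here gives the dose. The question was whether the loci differed between FHT-1015 and DMSO in 92-1 and A375, with the 5 other lines as reference.

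SMARCA4 and SMARCA2 are the ATPases of the BAF complexes, which slide or evict nucleosomes and keep many distal elements open. In the melanocyte lineage, PAX3 and SOX10 act on the MITF gene, and MITF, a basic helix-loop-helix leucine zipper factor, drives pigment and survival genes. TFAP2A is an AP-2 factor of the neural crest that works beside MITF. MITF has several promoters, and the one nearest its 3′ end, called M, is used in melanocytes, whereas the distal A promoter is used widely. PAX3 also marks muscle progenitors and rhabdomyosarcoma, and TFAP2A is also active in epithelia.

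In GRCh38 coordinates the SOX10 gene is chr22:37972312-37984555, and its locus also holds 6 other protein-coding genes, among them POLR2F, MICALL1 and PICK1. The MITF gene is chr3:69739464-69968332, with 3 starts in the RefSeq promoter table, at 69739464, 69763811 and 69936592. The TFAP2A gene is chr6:10396677-10419659, with starts at 10412391 and 10419659. Neither the MITF nor the TFAP2A locus holds another protein-coding gene. The PAX3 gene is chr2:222199887-222298998, with 1 start at 222298998, and its locus holds 1 other protein-coding gene, RNF228. The gene table gives no exons, so regions are given as inside or outside the gene.

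The 250 bases before 5 of these starts are shown because the use of starts separated the lines. They are RefSeq sequence of GRCh38.p14, written 5′ to 3′ on the strand of the gene. Capitals mark a motif: TGACGTCA (the cAMP response element), ACAATG or ACAAAG (cores bound by SOX factors), GCCNNNGGC (bound by AP-2 factors) and TAATTA (a homeodomain core), searched on both strands.
MITF start at 69739464, chr3:69739214-69739463, plus strand: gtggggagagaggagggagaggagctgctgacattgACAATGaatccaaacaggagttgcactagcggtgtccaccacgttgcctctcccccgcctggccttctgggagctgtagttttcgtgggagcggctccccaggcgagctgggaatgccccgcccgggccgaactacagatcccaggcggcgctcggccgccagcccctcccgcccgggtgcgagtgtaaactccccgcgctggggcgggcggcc
MITF start at 69936592, chr3:69936342-69936591, plus strand: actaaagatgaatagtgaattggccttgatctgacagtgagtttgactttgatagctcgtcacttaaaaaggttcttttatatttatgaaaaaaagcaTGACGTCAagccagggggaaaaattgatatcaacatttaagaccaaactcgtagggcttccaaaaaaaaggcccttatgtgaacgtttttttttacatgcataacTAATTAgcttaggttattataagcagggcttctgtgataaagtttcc
TFAP2A start at 10412391, chr6:10412392-10412641, minus strand: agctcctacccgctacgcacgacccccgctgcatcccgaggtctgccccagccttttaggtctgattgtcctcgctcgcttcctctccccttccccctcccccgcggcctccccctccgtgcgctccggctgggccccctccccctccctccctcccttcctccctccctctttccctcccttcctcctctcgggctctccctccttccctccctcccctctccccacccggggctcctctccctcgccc
TFAP2A start at 10419659, chr6:10419660-10419909, minus strand: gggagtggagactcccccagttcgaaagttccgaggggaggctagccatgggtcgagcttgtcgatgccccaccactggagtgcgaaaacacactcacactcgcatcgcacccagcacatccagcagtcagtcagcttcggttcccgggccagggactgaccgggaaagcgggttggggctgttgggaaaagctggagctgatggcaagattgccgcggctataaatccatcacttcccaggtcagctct
PAX3 start, chr2:222298999-222299248, minus strand: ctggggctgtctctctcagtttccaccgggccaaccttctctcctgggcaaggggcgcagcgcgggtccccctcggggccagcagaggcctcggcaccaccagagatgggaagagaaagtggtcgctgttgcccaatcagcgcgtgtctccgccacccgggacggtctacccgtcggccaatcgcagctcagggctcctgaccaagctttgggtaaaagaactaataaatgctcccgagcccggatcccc
The third MITF start lies where the M promoter is known, and its sequence held 1 TGACGTCA, beginning at position -152, and 1 TAATTA, beginning at position -47. Among 22035 protein-coding starts, 2.00% had TGACGTCA in the same window and 3.16% had TAATTA. The first MITF start, where the A promoter is known, held 1 ACAATG at position -214, as did 6.91% of starts. ACAAAG was in none of the 5 sequences and in 11.6% of starts. The second MITF start, at 69763811, is not shown and did hold 1 ACAAAG, at position -189 on the other strand. GCCNNNGGC was in none of the 5 and in 23.4% of starts. The E-box CANNTG, a motif of basic helix-loop-helix factors, was in none of the 5 and in 58.1% of starts. The first MITF start had 68% G and C and 20 CG pairs, against 34.8% and 4 at the third start, where the medians over all starts were 62% and 16. These matches are letters in a window and not sites.

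The samples held between 114291 and 431956 peaks. Strict peaks (a −log10 q no lower than 5) numbered 13760 to 121774 in 40 samples. The exceptions were FHT-1015 replicates 2 and 3 of 92-1, with 2037 and 1412 strict peaks. Their background, the most common local background among sampled deposited peaks and a stand-in for depth, was 0.0346 and 0.0341 against 0.0839 to 2.79 in the other 40. Because lists differed so much, the main value was the number of summits among the 20000 strongest peaks of a sample. In these 2 samples 82524 and 82276 peaks tied in p at that rank, so which weak peaks entered was largely set by ties. FHT-1015 replicate 1 of 92-1 had a background of 0.299, between those of DMSO replicates 1 (0.430) and 2 (0.123). Values of 92-1 are therefore also given with this replicate as the only treated sample. In bulk samples, fewer cells with a site open and less opening per cell cannot be told apart.

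The melanocyte identity of the labels was only partly visible in the peaks. Summed over 7 pigment-cell markers (MLANA, PMEL, TYR, DCT, TYRP1, GPR143 and SLC45A2), A375 DMSO samples had 29 to 31 of their 20000 strongest peaks, above 16 to 25 in the 5 other lines; with FHT-1015 A375 had 22 to 27 and 92-1 had 16 to 24. The 92-1 DMSO samples had 14 to 19, inside or below the range of the other lines, with none of the 7 markers at 0 in all 3 samples. TYR, which encodes tyrosinase, was at 0 in all DMSO samples of the 5 other lines and at 0 throughout in neither melanoma line, and in A375 GPR143 was at 0. The muscle markers MYOD1, MYF5, MYOG and DES summed to 25 to 31 in RD against 5 to 14 in the other 6 lines.

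**Figure D1:**
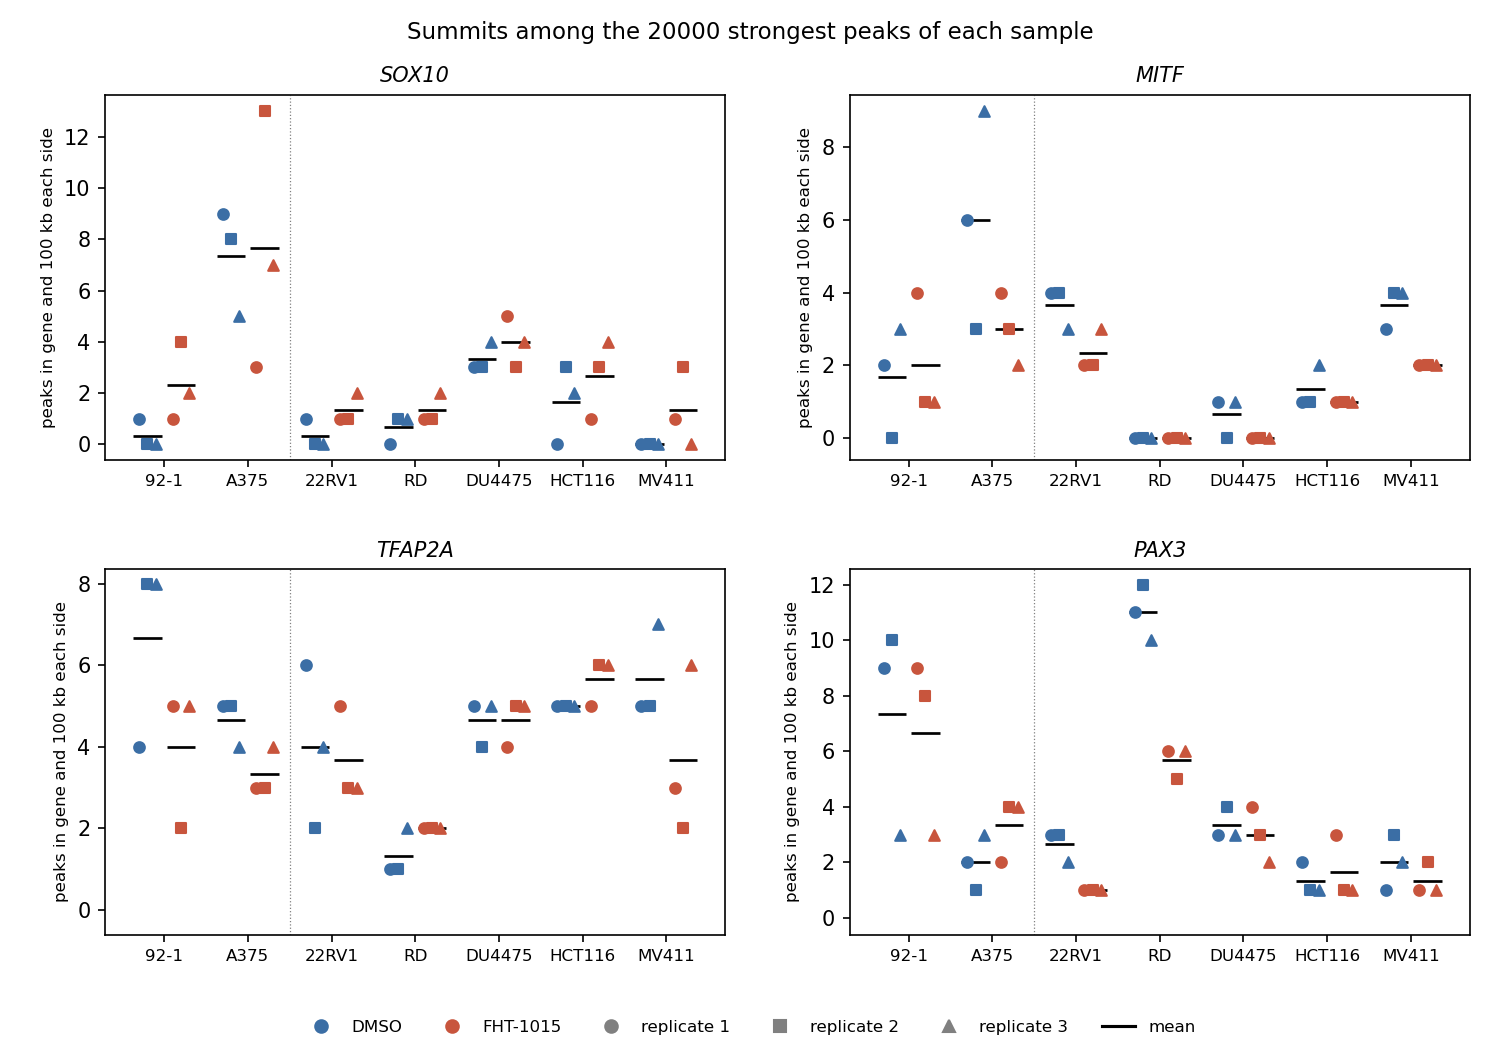
Number of summits inside each gene or within 100 kb (y axis, peaks) among the 20000 strongest peaks of each sample, by cell line (x axis). Points are single samples, coloured by treatment and shaped by replicate, and black lines are means of 3; MITF in MV411 and PAX3 in RD and 22RV1 were the cases with every FHT-1015 sample below every DMSO sample.

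At SOX10, the neural crest factor that holds melanocyte identity, A375 had the most of the 20000 strongest peaks and 92-1 had almost none. The DMSO samples of A375 had 9, 8 and 5 peaks among their 20000 strongest, and those of 92-1 had 1, 0 and 0. The DMSO means were 7.33 ± 2.08 (SD, n = 3) in A375, 3.33 ± 0.577 in DU4475, 1.67 ± 1.53 in HCT116, 0.667 ± 0.577 in RD, 0.333 ± 0.577 in 92-1 and in 22RV1, and 0 in MV411. A375 lay above DU4475 in every sample, and each later neighbour in this order overlapped the one before it. With FHT-1015 the A375 samples had 3, 13 and 7 peaks, so the groups overlapped, and replicate 2, which had the most strict peaks of the line (67237), was the highest.

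Over 92-1 and A375 the SOX10 count was 1.17 higher with FHT-1015 than with DMSO, which did not pass (adjusted p = 0.895, exact permutation within lines, Benjamini-Hochberg over all loci). Without A375 FHT-1015 replicate 2 the difference was -0.167. No locus passed at 0.05 in these 2 lines in either direction (0% lower and 0% higher), and at an unadjusted p under 0.05 the shares were 3.29% lower and 12.6% higher. In the 5 other lines the SOX10 count was 0.933 higher (adjusted p = 0.0705, exact permutation), higher in 5 of 5 lines, where 16.4% of loci rose and 2.38% fell. In strict peaks the SOX10 difference in the other lines had the opposite sign, -1.80 (adjusted p = 0.00540, exact permutation), where 80.7% of all loci fell in strict peaks in these lines, so the direction depended on how peaks were chosen. Leaving out single samples of those lines gave 0.767 to 1.10, which passed in 6 of 30 cases.

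Of the 19 regions (500 bp windows around summits) called in all 3 DMSO samples, 0 were lost, meaning called in no FHT-1015 sample, against 9.02% of 65005 such regions over the genome. The 3 FHT-1015 samples of A375 had 15, 18 and 18 of the 19. None of the 19 was centred inside SOX10 and 16 were centred inside another gene of the locus. The upper end of the gene, at 37984555, had a peak in 3 of 3 A375 samples in both groups, in 2 of 3 DMSO and 1 of 3 FHT-1015 samples of 92-1, in 1 DMSO sample of RD and in none of the remaining 4 lines. There A375 had pileups (fragments stacked at the summit) of 26, 25 and 10 with DMSO and 23, 83 and 23 with FHT-1015, so the groups overlapped. The strongest A375 element, chr22:37905016-37905515, lies 67.0 kb outside the gene and 1.03 kb from an end of another protein-coding gene. It had pileups of 45, 55 and 14 with DMSO and 33, 85 and 31 with FHT-1015, again overlapping. It was called in no sample of 92-1, but in 3 of 3 DMSO samples of RD and of MV411 and 2 of 3 of HCT116. In 92-1, 3 of 4 regions of the locus were lost, against 35.1% of 45826 regions over the genome, and FHT-1015 replicate 1 kept 1 of the 4. The strongest of them, chr22:38034545-38035044 inside POLR2F, which encodes a subunit shared by RNA polymerases, had pileups of 8, 6 and 4 with DMSO and no peak in the 3 FHT-1015 samples.

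MITF had fewer peaks under FHT-1015 in A375 in the deposited and the strict lists, with no overlap between the groups. The deposited lists of A375 had 58, 59 and 56 peaks at MITF with DMSO and 32, 44 and 48 with FHT-1015, without overlap. Those of 92-1 had 66, 59 and 60 with DMSO and 43, 23 and 19 with FHT-1015, also without overlap. Every treated sample was lower than every control in both lines, as at 1.18% of all loci, and as at 1.67% of loci in A375 alone and 46.4% in 92-1 alone. SOX10, TFAP2A and PAX3 did not do so in A375. In 92-1, 2 treated samples had low depth. FHT-1015 replicate 1 had 43 peaks at MITF and a higher background than 2 of the 3 controls. Its list was shorter, with 286272 peaks against 355876 to 431956 in the controls. The part of depth and list length in the 92-1 difference was not tested. The pigment-cell markers were also lower in A375 with FHT-1015 (22 to 27 peaks against 29 to 31), and their part in the MITF difference was not tested. Over both lines the deposited count was 24.8 lower (exact permutation p = 0.005, the smallest that 400 assignments allow, adjusted p = 0.339).

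In strict peaks A375 had 23, 25 and 12 at MITF with DMSO and 5, 11 and 6 with FHT-1015, again without overlap, as at 1.09% of loci. The A375 lists held 60943, 65602 and 26365 strict peaks with DMSO and 27964, 67237 and 32095 with FHT-1015. The part of list length in the strict difference was not tested. Per 1000 strict peaks of a sample, MITF had 0.377, 0.381 and 0.455 with DMSO and 0.179, 0.164 and 0.187 with FHT-1015, a ratio of means of 0.436. On that scale 5.95% of loci in A375 had treated samples below all controls. With 3 samples against 3 the exact permutation p of each of these A375 differences was 0.1, the smallest possible, and so not below 0.05. In 92-1 the strict counts were 16, 1 and 2 with DMSO and 4, 0 and 0 with FHT-1015, and the groups overlapped.

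Among the 20000 strongest peaks, the MITF counts of treated and control samples overlapped in both melanoma lines. A375 had 6, 3 and 9 peaks with DMSO and 4, 3 and 2 with FHT-1015, and 92-1 had 2, 0 and 3 with DMSO and 4, 1 and 1 with FHT-1015. Their joint difference was -1.33 (adjusted p = 0.741, exact permutation). In the other lines 22RV1 had 4, 4 and 3 with DMSO and 2, 2 and 3 with FHT-1015, MV411 had 3, 4 and 4 against 2, 2 and 2, DU4475 had 1, 0 and 1 against 0, 0 and 0, and HCT116 had 1, 1 and 2 against 1, 1 and 1. RD had 0 in all 6 samples. Of these lines MV411 did not overlap, as at 5.26% of its loci. The MITF count fell by 0.800 over these 5 lines (adjusted p = 0.0118, exact permutation), lower in 4 of 5 lines. This call was lost among the 10000 or 50000 strongest peaks, in the deposited lists, and away from gene ends (adjusted p from 0.0670 to 1.00), and in strict peaks it was -4.87 (adjusted p = 0.000459), where 80.7% of all loci fell in these lines. The change in the melanoma lines minus that in the others was -0.533 (adjusted p = 1.00, exact permutation), so a difference between the sets of lines was not detectable; at 3.25% of loci it was lower with unadjusted p under 0.05 and at 3.48% higher.

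The untreated MITF levels did not set the melanoma lines apart either. DMSO means were 6.0 ± 3.0 (SD, n = 3) in A375, 3.67 ± 0.577 in 22RV1 and in MV411, 1.67 ± 1.53 in 92-1, 1.33 ± 0.577 in HCT116, 0.667 ± 0.577 in DU4475 and 0 in RD. Every neighbour in this order overlapped the next or shared a value with it. Among the 50000 strongest peaks A375 DMSO samples had 21, 18 and 20, above every DMSO sample of the other lines (highest 14, in 92-1). Per 1000 strict peaks A375 was also above them, at 0.377, 0.381 and 0.455 (highest elsewhere 0.266, in 22RV1). In strict and in deposited counts A375 overlapped other lines, and 92-1 was not set apart in any of these settings.

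**Figure D2:**
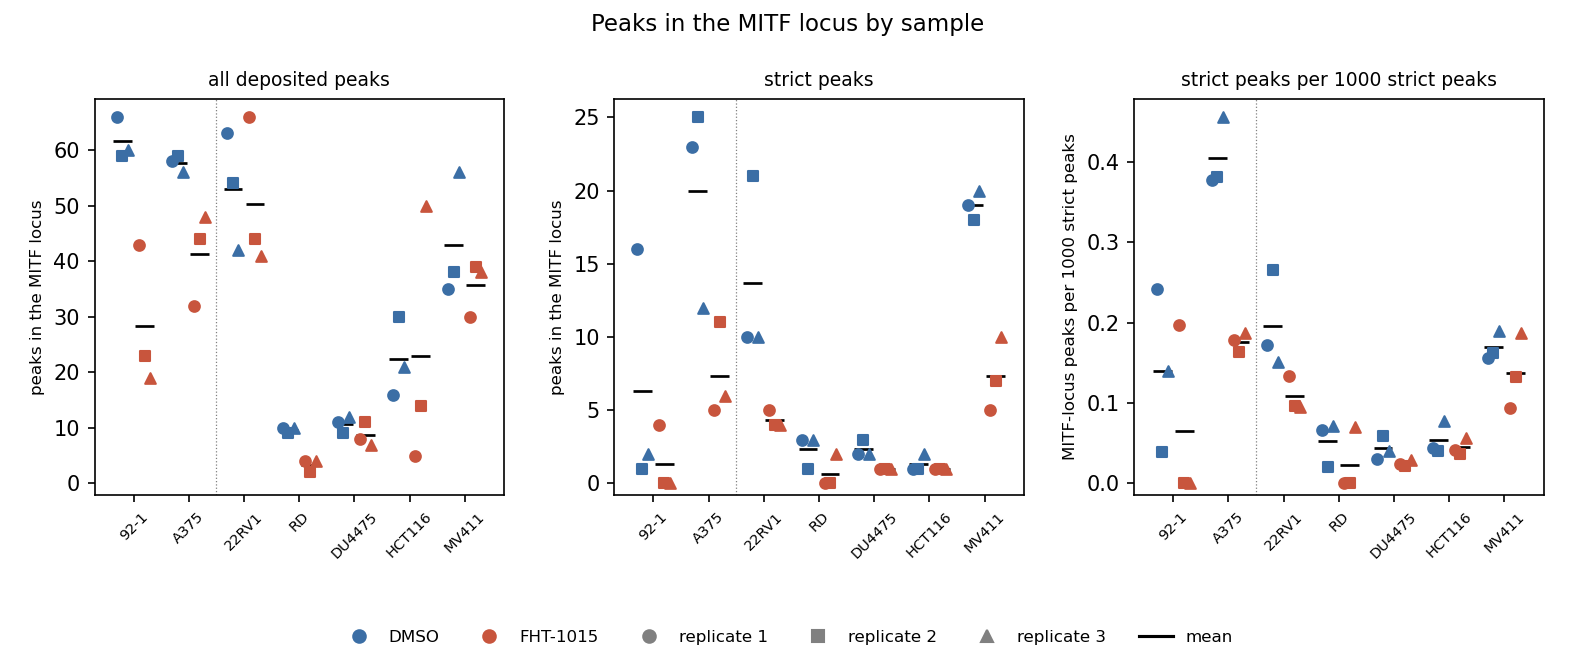
Peaks in the MITF locus in every sample by cell line (x axis), as all deposited peaks, as strict peaks, and as strict peaks of the locus per 1000 strict peaks of the sample (y axes). Points are samples and black lines are means of 3; in A375 the 3 FHT-1015 samples sit below the 3 DMSO samples in each panel (32 to 48 against 56 to 59 deposited peaks).

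The MITF losses in A375 lay away from the first start. Of 25 MITF regions called in all 3 A375 controls, 6 were lost (24.0%, against 9.02% over the genome), and 5 of the 6 were inside the gene. The 3 FHT-1015 samples had 13, 16 and 13 of the 25, that is 52.0%, 64.0% and 52.0%, against 66.9%, 85.6% and 73.8% of all regions. Since elements at gene ends were kept more often, regions over 1 kb from the ends of genes were also counted. Of 23 such MITF regions 47.8%, 60.9% and 47.8% were kept, against 56.0%, 80.7% and 65.2% of 45878 over the genome. The MITF share was the lower one in each of the 3 samples. In 92-1 the order was the other way: MITF lost 3 of 11 regions (27.3%, against 35.1% over the genome), and FHT-1015 replicate 1 kept 7 of the 11 (63.6%, against 52.6% of all regions). In strict peaks A375 lost 5 of 12 MITF regions (41.7%, against 7.54% of all its strict regions). Strict MITF losses were 3 of 6 in 22RV1 (26.3% over the genome), 6 of 12 in MV411 (32.3%) and 1 of 2 in DU4475 (6.71%). RD and HCT116 each lost 0 of 1. In the deposited lists RD lost 3 of 4 (15.9% over the genome), 22RV1 2 of 11 (18%) and MV411 4 of 19 (19.7%). DU4475 and HCT116 lost 0 of 2 and 0 of 1 there. The regions of SOX10, TFAP2A and PAX3 away from gene ends were kept at 66.7% or more in every A375 sample.

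**Figure D3:**
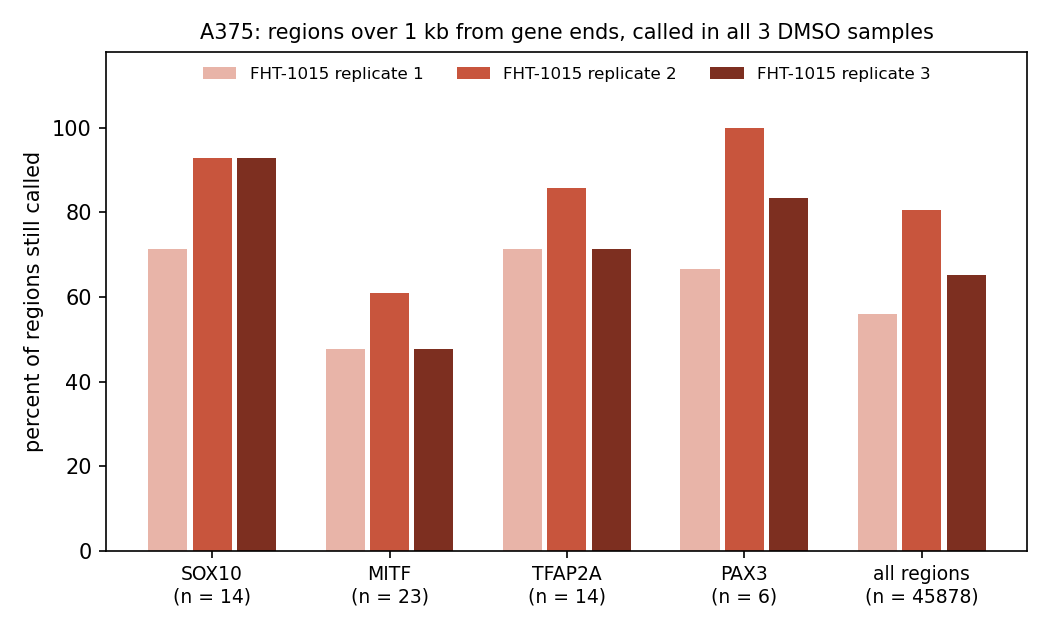
Percent of regions called in all 3 A375 DMSO samples and over 1 kb from gene ends (y axis) that were still called in each FHT-1015 replicate (bars), for the 4 loci and for all regions (x axis, with the number of regions). MITF is at 47.8% to 60.9% and all regions are at 56.0% to 80.7%.

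The 5 regions lost from strict peaks in A375 came from 4 elements, because neighbouring windows at chr3:69675845-69676344 and chr3:69676475-69676974 share 1 peak. That pair lies 63.4 and 62.7 kb upstream of the first start. The first window had pileups of 18, 13 and 9 with DMSO and 9, 9 and no peak with FHT-1015. An element inside the gene, chr3:69821052-69821551, 57.5 kb downstream of the second start, had pileups of 14, 12 and 12 with DMSO and no peak in the 3 FHT-1015 samples. In 92-1 the same element had pileups of 13, 4 and 2 with DMSO and 13 in FHT-1015 replicate 1, with none in replicates 2 and 3, so it was not lost there. Downstream of the gene, chr3:70000451-70000950 had pileups of 29, 24 and 17 with DMSO, 19 in FHT-1015 replicate 1 and no peak in the others. Farther on, chr3:70040312-70040811, 72.2 kb beyond the gene, kept a peak in all 6 samples, at pileups of 24, 29 and 16 with DMSO and 8, 12 and 7 with FHT-1015. The groups did not overlap there, and the deposited folds were 8.39, 9.40 and 7.78 against 3.44, 4.64 and 4.61. All these elements were picked as strict in the 3 controls and in no treated sample. Their lower treated values follow in part from that choice and are no test.

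**Figure D4:**
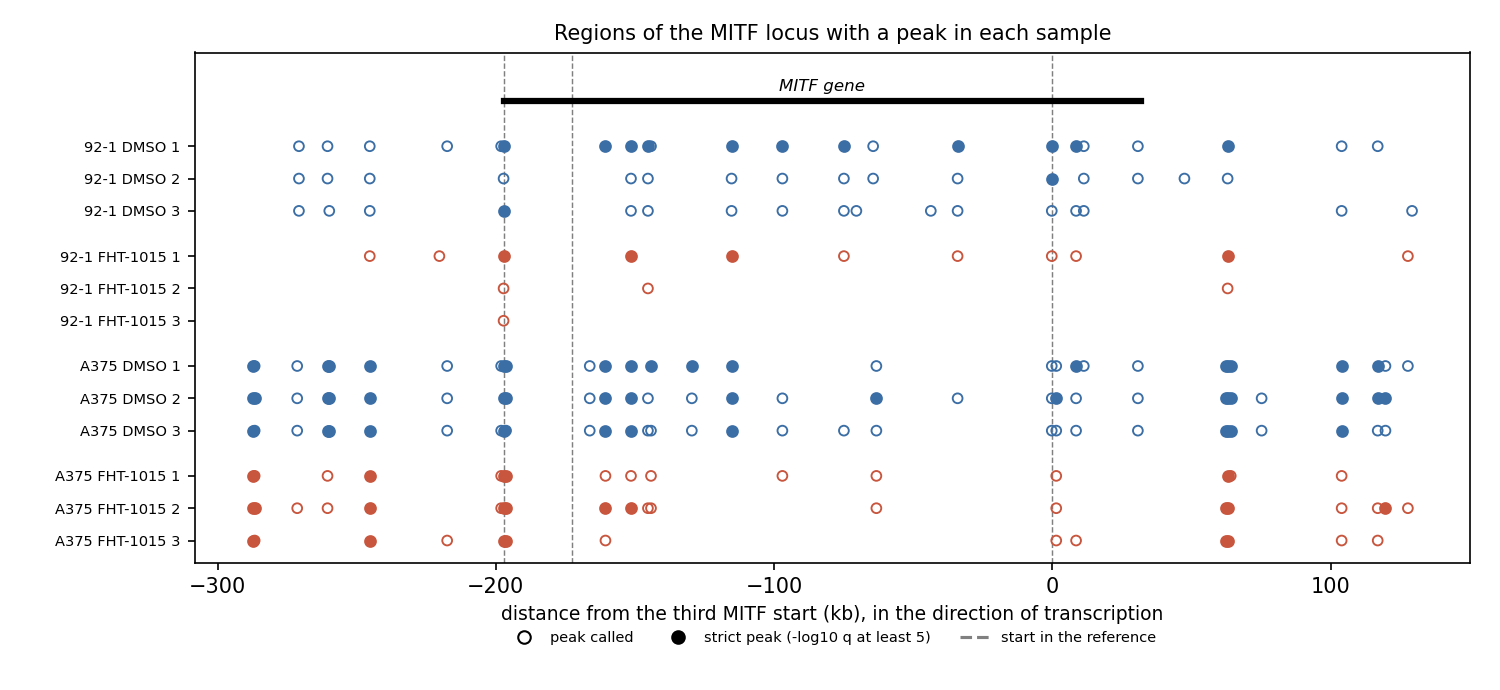
Regions of the MITF locus, called in all 3 samples of at least 1 group, with a peak in each sample of 92-1 and A375 (rows), by distance from the third start (x axis, kb). Open circles are called peaks, filled circles strict peaks, dashed lines the 3 starts and the black bar the gene; the column at the first start is filled or open in all 12 rows, while the interior of the gene thins out in FHT-1015 rows, of which 92-1 replicates 2 and 3 are the shallow samples.

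The MITF starts differed in where they were open. The first start had a peak in all 42 samples, as did 10.2% of 22012 protein-coding starts. It was the strongest MITF region in both melanoma lines. A375 had pileups of 48, 43 and 25 there with DMSO and 42, 69 and 52 with FHT-1015, and the groups overlapped. The second start had a peak in none of the 42 samples. The third start, with its TGACGTCA shown above, had a summit within 1 kb in 3 of 3 DMSO samples of 92-1 and 3 of 3 of A375, and in none of the 30 samples of the other lines. By the same rule of 1 kb, chosen after its values were seen, 10736 of 22012 starts had a summit in all 6 melanoma DMSO samples, and 1 of them, this one, had none in the 30 other samples. The summits of A375 DMSO replicate 3 under this rule had −log10 q of 0.390 and 0.411. The count of 1 under a rule chosen in this way is no test. In the narrower start window used for the other starts, the third start was called in 3 of 3 DMSO samples of 92-1 and in 1 of 3 of A375. By that window 10 starts were called in all 6 melanoma DMSO samples and in no DMSO sample of the other lines. The third MITF start was not among them. The element at the third start was weak. In 92-1 the peaks at the start had pileups of 12, 6 and 2 with DMSO and 6 in FHT-1015 replicate 1, with none in replicates 2 and 3. In A375 the region chr3:69936134-69936633 had pileups of 9, 7 and 3 with DMSO and counted as lost under the overlap of 100 bp. FHT-1015 replicate 3 of A375, however, had a peak with its summit 83 bp past the start that overlapped this region by 26 bp, and a summit within 1 kb remained in 2 of 3 treated samples. A loss at the third start could therefore not be told from the choice of overlap in A375 or from depth in 92-1.

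Outside the melanoma lines, MITF strict peaks of MV411 were 19, 18 and 20 with DMSO and 5, 7 and 10 with FHT-1015, and those of 22RV1 were 10, 21 and 10 against 5, 4 and 4. Those of DU4475 were 2, 3 and 2 against 1, 1 and 1. In these 3 lines the groups did not overlap, as at 74.1% of loci in MV411, 37.8% in 22RV1 and 16.3% in DU4475. RD did not overlap in the deposited lists, with 10, 9 and 10 peaks against 4, 2 and 4, as at 24.6% of its loci. Per 1000 strict peaks MV411 overlapped, 0.156, 0.162 and 0.190 against 0.0937, 0.133 and 0.187. On that scale 22RV1 did not, 0.172, 0.266 and 0.150 against 0.134, 0.0966 and 0.0956, as at 7.44% of its loci, nor did DU4475, 0.0310, 0.0589 and 0.0409 against 0.0240, 0.0221 and 0.0289, as at 6.57% of its loci.

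TFAP2A, the AP-2 factor, had lower counts in both melanoma lines without passing the test. The 92-1 samples had 4, 8 and 8 peaks with DMSO and 5, 2 and 5 with FHT-1015, and A375 had 5, 5 and 4 against 3, 3 and 4. Each line overlapped by 1 value or more. The joint difference was -2.0 (unadjusted p = 0.0700, adjusted p = 0.329, exact permutation), where the median over all loci was 0.333. In the other lines it was -0.200 (adjusted p = 0.956, exact permutation), and the contrast between the sets was -1.80 (unadjusted p = 0.115, adjusted p = 0.813). DMSO means ran from 6.67 ± 2.31 (SD, n = 3) in 92-1 through 5.67 ± 1.15 in MV411, 5.0 in HCT116, 4.67 ± 0.577 in A375 and DU4475 and 4.00 ± 2.00 in 22RV1 to 1.33 ± 0.577 in RD. Neighbours in this order overlapped or shared a value.

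The strict TFAP2A peaks of 92-1 were 15, 8 and 8 with DMSO and 5, 1 and 1 with FHT-1015, without overlap, as at 8.86% of loci. Per 1000 strict peaks the order was not kept, 0.226, 0.315 and 0.561 with DMSO against 0.247, 0.491 and 0.708 with FHT-1015. In 92-1, 5 of 11 regions were lost, against 35.1% over the genome, and 3 of 6 strict regions, against 40.4%. The 3 strict losses were outside the gene. The region chr6:10375300-10375799 had pileups of 19, 10 and 5 with DMSO, chr6:10431332-10431831 had 20, 10 and 9, and chr6:10441151-10441650 had 20, 13 and 8. None of the 3 had a peak in any FHT-1015 sample of 92-1, replicate 1 included. The middle one was called in no A375 sample and in 1 sample of the 5 other lines, an FHT-1015 sample of HCT116. In A375 the first of them had pileups of 23, 19 and 8 with DMSO and a peak in FHT-1015 replicate 2 alone, at 9, and the third had a peak in 2 of 3 DMSO and 1 of 3 FHT-1015 samples.

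A375 lost 1 of 14 TFAP2A regions, near the 9.02% over the genome. From strict peaks it lost 1 of 7, where 7.54% were lost over the genome. That region was chr6:10451741-10452240, 32.3 kb upstream of the gene, which had pileups of 18, 27 and 12 with DMSO and 8, 10 and no peak with FHT-1015. The strongest A375 element, chr6:10403650-10404149 inside the gene, had 66, 62 and 32 with DMSO and 69, 102 and 56 with FHT-1015, and the groups overlapped. The strongest 92-1 element, chr6:10383356-10383855, had 48, 21 and 7 with DMSO and 10, 2 and no peak with FHT-1015, where replicate 1 lay within the range of the controls. Of the 2 starts shown above, the one at 10412391 had peaks in all 7 lines and in 3 of 3 DMSO samples of both melanoma lines. The one at 10419659 had peaks in 3 of 3 samples of 22RV1 in both groups and in 1 DMSO sample of DU4475, and in no sample of 92-1 or A375. At 10412391 A375 pileups were 27, 33 and 18 with DMSO and 28, 38 and 22 with FHT-1015, overlapping.

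PAX3, the paired-box factor upstream of MITF, had the most peaks in RD and in 92-1. RD had 11, 12 and 10 peaks with DMSO, 92-1 had 9, 10 and 3, and A375 had 2, 1 and 3. DMSO means were 11 ± 1.0 (SD, n = 3) in RD, 7.33 ± 3.79 in 92-1, 3.33 ± 0.577 in DU4475, 2.67 ± 0.577 in 22RV1, 2.00 ± 1.00 in A375 and in MV411 and 1.33 ± 0.577 in HCT116. RD and 92-1 shared a count of 10, and the later neighbours overlapped too. Of 18 PAX3 regions in all DMSO samples of 92-1, 12 were called in no DMSO sample of A375, and 8 of these 12 lay inside the gene. Of the 9 regions of A375, 5 were in all DMSO samples of 92-1 and 9 had a peak in a DMSO sample of at least 1 of the 5 other lines. Of the 12 regions of 92-1, 1 was also in all DMSO samples of RD, and 6 were in no DMSO sample of the 5 other lines (50%, against 32.2% of 18018 such regions over the genome).

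**Figure D5:**
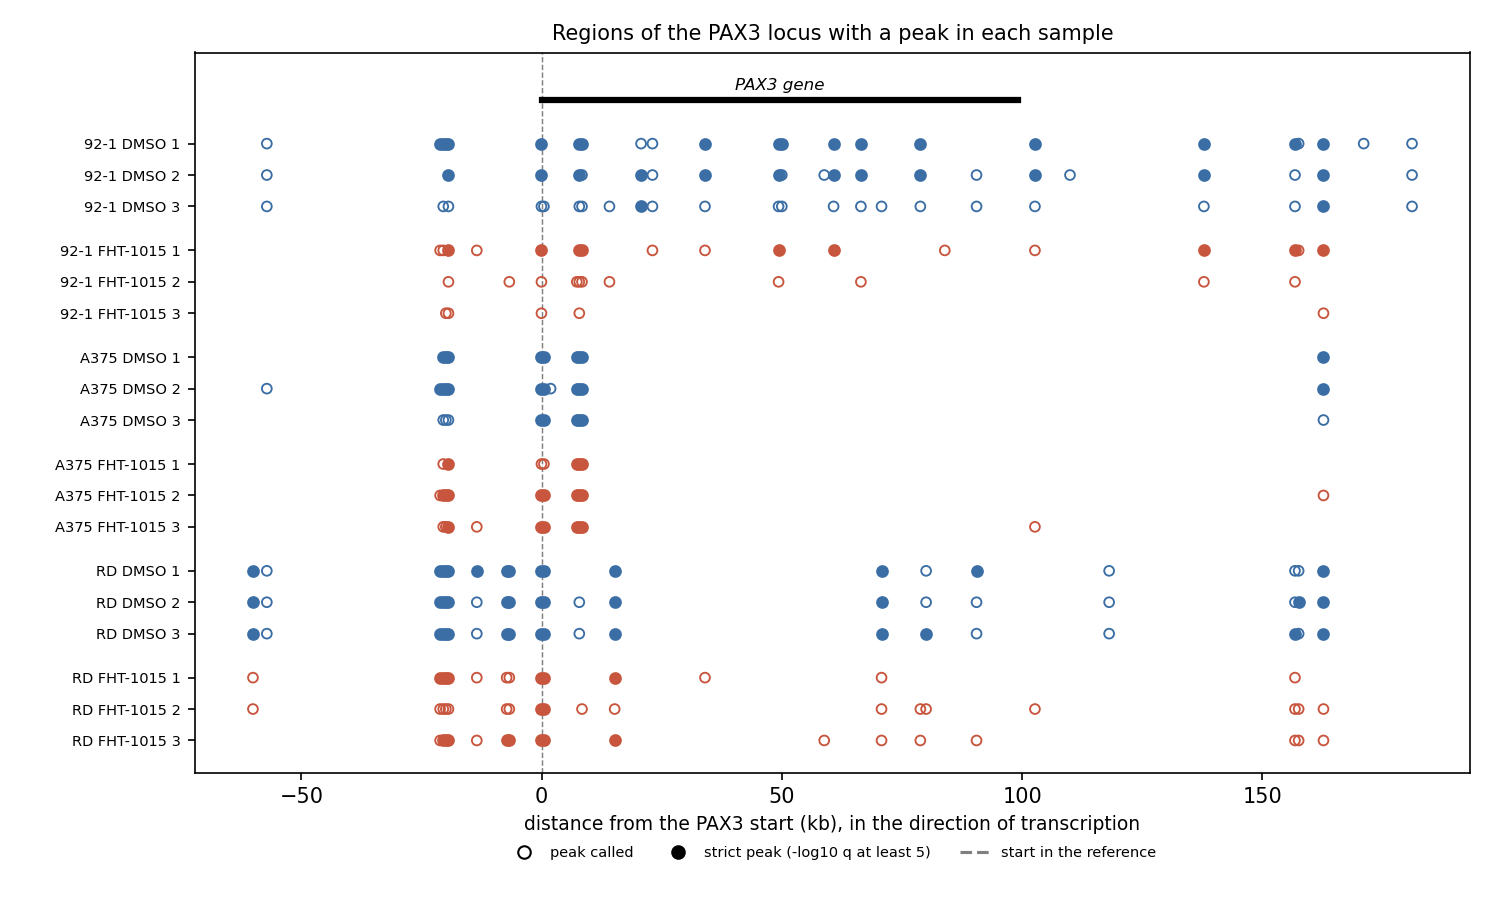
Regions of the PAX3 locus, called in all 3 samples of at least 1 group, with a peak in each sample of 92-1, A375 and RD (rows), by distance from the PAX3 start in the direction of transcription (x axis, kb). Open circles are called peaks, filled circles strict peaks, the dashed line the start and the black bar the gene; the interior of the gene past the cluster after the start holds peaks in 92-1 and RD DMSO rows and none in A375 DMSO rows.

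With FHT-1015 the PAX3 count of the melanoma lines did not pass the test in either direction. The 92-1 samples had 9, 8 and 3 peaks and A375 had 2, 4 and 4, both overlapping their controls, and the joint difference was 0.333 (adjusted p = 1.00, exact permutation). RD had 6, 5 and 6, below its 3 controls, and 22RV1 had 1, 1 and 1 against 3, 3 and 2. These 2 lines did not overlap, as at 4.21% and 6.57% of their loci. Over the 5 other lines the PAX3 count fell by 1.53 (adjusted p = 0.0428, exact permutation), lower in 4 of 5 lines, where 2.38% of loci fell. Leaving out HCT116 DMSO replicate 1, FHT-1015 replicate 2 or FHT-1015 replicate 3 gave a difference of -1.47 and an adjusted p of 0.0538, 0.0504 or 0.0502 (exact permutation), and the other 27 such fits passed. The call was also lost among the 10000 or 50000 strongest peaks, in the deposited lists, with 50 kb on each side and away from gene ends (adjusted p from 0.0989 to 1.00), and in strict peaks it was -6.20 (adjusted p = 0.00193), where 80.7% of all loci fell. The contrast between melanoma and other lines was 1.87 (adjusted p = 0.896).

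Per 1000 strict peaks RD had 0.465, 0.390 and 0.526 at PAX3 with DMSO and 0.286, 0.218 and 0.282 with FHT-1015, without overlap, as at 12.3% of its loci. The muscle markers of RD summed to 25 to 31 peaks with DMSO and 12 to 18 with FHT-1015, and their part in the PAX3 difference was not tested. Of 12 strict PAX3 regions of RD 3 were lost, against 22.1% over the genome, and of 11 in MV411 6 were lost, against 32.3%.

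The PAX3 start kept its peak. It was called in 3 of 3 samples of both groups in 92-1, A375 and RD and in no sample of DU4475 or HCT116. A375 had pileups of 27, 17 and 14 there with DMSO and 13, 41 and 18 with FHT-1015, and RD had 70, 109 and 77 against 53, 30 and 65. A375 overlapped, and in RD every treated pileup lay below every control. The deposited folds of RD there overlapped, at 9.77, 11.5 and 9.21 with DMSO and 6.36, 5.44 and 9.53 with FHT-1015. How many regions separate by pileup in this way was not counted. The strongest elements of A375 and 92-1, chr2:222290354-222290853 and chr2:222290916-222291415, lie inside the gene 8.39 and 7.83 kb past the start and had the same pileups in every A375 sample. A375 had pileups of 36, 37 and 20 there with DMSO and 28, 54 and 29 with FHT-1015. The second was called in 3 of 3 treated samples of 92-1, at 24, 3 and 3 against 91, 22 and 7 with DMSO. In A375, 0 of 9 PAX3 regions were lost, where 9.02% were over the genome. In 92-1, 5 of 18 were lost, below the 35.1% over the genome, and FHT-1015 replicate 1 kept 12 of the 18.

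Across the 4 loci 92-1 lost 16 of 44 regions (36.4%, against 35.1% over the genome) and A375 lost 7 of 67 (10.4%, against 9.02%), so both shares were near the background. No region was lost, and none gained, in both lines. With FHT-1015 replicate 1 as the only treated sample of 92-1, 19 of 44 regions had no peak, against 47.4% of all regions. The 10 regions of the loci within 1 kb of a gene end in A375 were kept in each of the 3 FHT-1015 samples, as were 92.8% to 97.6% of all such regions. In 92-1, 1 region was gained, at SOX10 (10.6% of regions called in all treated samples were gained over the genome), and in A375 none of 44 was (3.27% over the genome).

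Other genes of the lineage were counted from lists chosen for it. Among 16 further regulators, 1 passed an unadjusted p under 0.05 in the melanoma lines, upward, among 5 receptors none did, and among 11 pigment genes 1 did, downward, where 12.6% of all loci were higher and 3.29% lower. None passed after adjustment. The medians of the 3 lists were -0.250, 0.333 and -0.667, against 0.333 over all loci. The regulator was ID3, an inhibitor of basic helix-loop-helix factors, with 0, 0 and 2 peaks in 92-1 and 2, 2 and 2 in A375 with DMSO, and 3, 3 and 3 and 4, 3 and 3 with FHT-1015 (difference 1.83, adjusted p = 0.180, exact permutation). The pigment gene was SLC24A5, a melanosomal ion exchanger. It had 4, 2 and 2 peaks in 92-1 with DMSO against 0, 1 and 0 with FHT-1015, and 4, 2 and 2 in A375 against 1, 0 and 1. The SLC24A5 difference was -2.17 (unadjusted p = 0.005, the smallest possible, adjusted p = 0.180, exact permutation), every treated sample lay below every control of its line, as at 0.666% of loci (ID3 lay above in both, as did 2.12%), and in the 5 other lines it was 0.20. In strict peaks SLC24A5 did not overlap in 92-1 (6, 4 and 2 against 0, 0 and 0) and overlapped in A375 (11, 8 and 3 against 1, 5 and 2). ID3 overlapped in strict peaks in both lines. It had 5, 1 and 2 against 3, 0 and 0 in 92-1, where the mean was lower with FHT-1015, and 5, 7 and 4 against 6, 12 and 4 in A375. The last 2 treated samples of 92-1 are the shallow ones for both genes.

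The genes outside each locus whose counts were most like its own over the 21 DMSO samples were ABHD6 (Pearson r = 0.917), DNASE1L3 (0.916) and CYP1B1 (0.915) for SOX10, and ZNF536 (0.912), TMPRSS5 (0.890) and SLC24A2 (0.842) for MITF. For TFAP2A they included RNF144B (0.760) and MASP1 (0.751), and for PAX3 they were PKIA (0.864), CCT8L2 (0.861) and R3HCC1 (0.852). The points of these correlations share cell lines, 3 samples a line, and small counts, so they describe the lists only.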

How the data were processed

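ATAC-seq was analysed in 42 samples of 7 cell lines, 2 treatments and 3 replicates, each sample with its own peak list, so the authors did not pool replicates. Per the submitters' processing notes, Bowtie2, Picard, MACS2, limma and HOMER were used with build hg38; no source used here gives their order or versions, or says whether read ends were moved to the cut site. The deposited lists are in narrowPeak form. The deposited fold of a peak is a ratio to its local background, as the authors made it. The deposited p and q values are on the −log10 scale, and the lowest −log10 p of a list was 2.00 to 2.04. The deposited score was not used. The peak names of 92-1, 22RV1, HCT116 and MV411 hold the word small, whose meaning is not given, so treatments were compared within lines.

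Fold and p fitted (P + 1)/(L + 1) and a Poisson tail of pileup P over background L, with a tolerance of 0.01, and gave P and L. The lists hold no read counts, and their depth is known only through L, which sets how small p can become. Summits were set against RefSeq GRCh38.p14 genes. The main value was the count among the 20000 strongest peaks by p. Treatment was permuted exactly within lines (92-1 with A375, 400 assignments; the 5 other lines and the contrast by convolution), two-sided, with Benjamini-Hochberg adjustment over 19974 loci; the procedure was tested on simulated data. The exact permutation p of a single line, 3 against 3, cannot go below 0.1. P-values measure the spread between these samples, which the labels call biological replicates without naming separate cultures. Regions were 500 bp windows around summits of all lists, called where a peak overlapped by at least 100 bp. Alternatives were 10000 or 50000 peaks, strict peaks (−log10 q of at least 5), all deposited peaks, 50 kb windows, peaks over 1 kb from gene ends, an overlap of 250 bp, a replicate block and leaving out replicates. Values without single samples of the other lines, with 92-1 FHT-1015 replicate 1 as the only treated sample, and strict peaks per 1000, were added after seeing the data.

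The members and gene lists were chosen with earlier results of these data known. Regions named are the strongest per locus and melanoma line, those at gene starts, and up to 6 per locus and line lost or gained in strict peaks; the counts of MV411, 22RV1, DU4475 and RD at MITF were chosen after their values were seen. Of the 4 members 3 had promoter sequences in the reference, and SOX10 is named only. Python 3.11.15, numpy 2.4.6, pandas 2.3.3 and scipy 1.17.1 were used. One gene among those most like TFAP2A is not reported here.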

Additional observations from a re-analysis of the deposited data

How the results depend on the processing

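Of 786 recomputed values 613 kept their direction and their side of the threshold or stayed within 1.5 times the count, and 173 did not. Many main differences were near 0, so signs turned easily, and the cause of a change was not tested. The depth of 92-1 FHT-1015 replicates 2 and 3 limits all values of 92-1.

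With the 10000 strongest peaks, differences (FHT-1015 minus DMSO, peaks) were -1.0 for SOX10 in A375, 0.50 for MITF in the melanoma lines, -0.467 for MITF in the other lines (no longer called), 0.967 for the MITF contrast, -1.33 for TFAP2A in HCT116 and -0.533 for PAX3 in the other lines (no longer called). With 50000 they were 1.80 for SOX10 in the other lines (now called), -1.47 for MITF and -1.60 for PAX3 there (no longer called), -2.33 for MITF in 92-1, 1.33, 0.333, -0.333 and -6.67 for TFAP2A in A375, 22RV1, RD and HCT116, and -1.33 and 1.0 for PAX3 in the melanoma lines and 22RV1.

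With strict peaks SOX10 turned to -1.0 in the melanoma lines, -1.80 in the other lines, and -1.67, -0.333, -4.33, -2.33, -2.0 and -1.33 in 92-1, A375, 22RV1, RD, DU4475 and MV411. MITF in 92-1 was -5.00, TFAP2A was -4.00 in the other lines (now called) and -1.33 and -1.0 in RD and HCT116, and PAX3 was -5.33 in the melanoma lines and -1.0 in A375. With all deposited peaks SOX10 was -1.67 in the melanoma lines, -5.67 in the contrast and -4.67 in 92-1. MITF was -3.53 in the other lines (no longer called), -33.3 in 92-1 and 0.667 in HCT116, TFAP2A was 6.33, -0.667 and -7.00 in 22RV1, RD and HCT116, and PAX3 was -9.17 in the melanoma lines, -2.20 in the other lines (no longer called), -6.97 in the contrast, and -0.667, 1.0, 2.67 and -5.00 in A375, 22RV1, DU4475 and HCT116.

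With 50 kb on each side the SOX10 and MITF contrasts were -0.400 and 0.233, and PAX3 in the other lines was -1.07 (no longer called). Away from gene ends SOX10 was -0.333 in the melanoma lines, -0.600 in the contrast and -2.33 in A375, and MITF and PAX3 in the other lines were -0.600 and -1.33 (no longer called). With 92-1 FHT-1015 replicate 1 as the only treated sample the SOX10 and MITF contrasts were -0.433 and 0.467 and PAX3 in 92-1 was 1.67; with strict peaks as well, SOX10 was -0.667 in the melanoma lines and -1.0 in 92-1, MITF was -2.33 in 92-1 and PAX3 was -2.33 in the melanoma lines. Per 1000 strict peaks SOX10 was -0.0218, -0.0276 and -0.0351 in 92-1, 22RV1 and RD, MITF was -0.0744 in 92-1, TFAP2A was 0.115 and -0.0228 in 92-1 and HCT116, and PAX3 was 0.0166 in DU4475.

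Same-numbered samples deviated together weakly or not at all, with r from -0.0645 to 0.173 over 21 pairs. Of 21 samples 7 were most like their own number, 3 of 3 in 92-1 and 2 of 3 in A375. No line had all 3 values over 0.1, so the numbers were not taken to pair the samples. A weak pairing in 92-1 and A375 was not excluded. Under a replicate block the differences in the other lines stayed 0.933 for SOX10 (now called, adjusted p = 0.0398, exact permutation), -0.800 for MITF (no longer called, adjusted p = 0.0576) and -1.53 for PAX3 (no longer called, adjusted p = 0.0854).

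Leaving out each sample of the melanoma lines gave -1.28 to 0.217 for the MITF contrast, -0.667 to 1.0 for MITF in 92-1, -0.750 to 1.25 for PAX3 in the melanoma lines, -2.83 to 1.17 for PAX3 in 92-1, -0.167 to 2.33, -1.10 to 1.4 and -2.33 to 2.67 for SOX10 in the melanoma lines, the contrast and A375, 16 to 30 and 8 to 12 regions lost in 92-1 and A375, and 1 to 6 and 0 to 3 gained. Leaving out each sample of the 5 other lines gave 0.767 to 1.10 for SOX10, -0.867 to -0.733 for MITF, -0.433 to 0 for TFAP2A and -1.67 to -1.43 for PAX3. With an overlap of 250 bp 92-1 lost 3 of 11 regions, against 40.8% over the genome. In strict peaks it lost 3 of 7 (40.4% over the genome), and among the 20000 strongest 0 of 3 (32.4%). It gained 0 in each, against 1.05%, 0.148% and 2.2% over the genome. With replicate 1 alone 59 were gained, under a looser rule that asks for a call in 1 treated sample. The share over the genome was not counted for the 59 or for the leave-out ranges. Among the 20000 strongest peaks A375 lost 2 of 14 (10% over the genome) and gained 1 of 15 (4.94%).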
